A study of Mus musculus with 8 samples.

Results

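Ligands of the transforming growth factor beta (TGF-beta) family were examined in the lungs of bone marrow chimeric mice after diphtheria toxin. The set is 10 of the 37074 genes named on the array: Tgfb1, Tgfb2, Tgfb3, Bmp2, Bmp4, Bmp5, Bmp6, Gdf2, Inhba and Inhbb. They were taken by name from the array annotation, as a list drawn up with earlier results of these data known, and are read by 16 of its 56605 probes. All 10 genes passed the filter on dim probes, through 15 of the 16 probes.

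The mice carried marrow and host tissue that were each either wild type or LysM-DTR, in which the lysozyme M promoter places the diphtheria toxin receptor on cells that make lysozyme M. In LL mice both marrow donor and recipient were LysM-DTR. In WL mice wild-type marrow was placed in LysM-DTR recipients, and in LW mice LysM-DTR marrow was placed in wild-type recipients. In WW mice both sides were wild type. All 4 groups received the toxin, and all 8 mice (2 per group, 1 array each) were males of 22 weeks whose lungs were taken 72 hours later, so no array shows a lung without toxin. LysM is active in macrophages, monocytes and neutrophils and also in alveolar type 2 cells, and the host cells that remain in a chimera are not given. The arrays measured RNA of whole lung, so fewer cells of a type and less RNA per cell cannot be told apart.

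Ligands of this family are secreted as dimers and bind pairs of type I and type II receptor kinases. TGF-betas and activins signal through Smad2 and Smad3, whereas bone morphogenetic proteins (BMPs) signal through Smad1, Smad5 and Smad9. In the lung, TGF-beta is known for its roles in matrix deposition and in epithelial repair, and BMPs for roles in branching, in the alveolar epithelium and in vessels. Activin A, the dimer of the Inhba product, is a secreted factor known to increase in inflammation and is held in check by follistatin.

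The probes are shown to let the reader see what was measured and how far the probes of related ligands resemble each other. Probes are 60 bases long, and 30 bases of each are printed for the genes on which most of the results turn. The closest pair of ligand probes were those of Tgfb1 and Tgfb2, at 28 of 41 aligned bases (68.3%). Their best window of 30 bases is shown first, with the 24 bases shared by both in capitals.
Tgfb1 probe, bases 31 to 60: GCCCAAGgTgGAgCAGtTgTCCAAcATGAT
Tgfb2 probe, bases 12 to 41: GCCCAAGaTcGAaCAGcTtTCCAAtATGAT
The first 30 bases of the probes for the called ligand and for both activin subunits are shown in lower case, since no part of them is compared.
Gdf2 probe: aatcagagccggaaggacttcaaaacatct
Inhba probe: tcaacatttgctgtaagaaacagttctttg
Inhbb probe: tgactggtggagtgaaggtgtgtgctgtaa
On the mouse build mm9 that the file headers name, the Gdf2 probe lies at chr14:34760077-34760136 on the plus strand, the Inhba probe at chr13:16118634-16118693 on the plus strand, and the Inhbb probe at chr1:121312160-121312219 on the minus strand. The exon or untranslated region under each probe was not looked up.

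Promoters from RefSeq on GRCm38.p6, each 250 bases before to 50 bases after the start, were matched for 8 of the 10 genes. No entry was used for Bmp2 and Tgfb3. The letters TATAAA, searched on both strands, were in 3 of the 8 windows, those of Tgfb2, Inhba and Gdf2, and in 13.6% of all 32851 promoters. They are capitals below. In the Gdf2 window they read on the opposite strand, so the printed strand shows TTTATA.
Inhba promoter, chr13:16011601-16011900, plus strand: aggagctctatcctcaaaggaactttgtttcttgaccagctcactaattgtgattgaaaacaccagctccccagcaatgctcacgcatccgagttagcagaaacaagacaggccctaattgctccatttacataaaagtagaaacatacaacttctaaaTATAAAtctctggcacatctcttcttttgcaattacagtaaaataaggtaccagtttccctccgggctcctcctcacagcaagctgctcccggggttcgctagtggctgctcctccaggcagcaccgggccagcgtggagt
Tgfb2 promoter, chr1:186705940-186706239, minus strand: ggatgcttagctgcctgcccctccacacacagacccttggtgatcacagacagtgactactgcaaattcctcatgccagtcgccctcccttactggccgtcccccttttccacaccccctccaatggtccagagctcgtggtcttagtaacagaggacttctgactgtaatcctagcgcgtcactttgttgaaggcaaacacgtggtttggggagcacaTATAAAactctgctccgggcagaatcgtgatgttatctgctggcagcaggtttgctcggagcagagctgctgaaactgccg
Gdf2 promoter, chr14:33940789-33941088, plus strand: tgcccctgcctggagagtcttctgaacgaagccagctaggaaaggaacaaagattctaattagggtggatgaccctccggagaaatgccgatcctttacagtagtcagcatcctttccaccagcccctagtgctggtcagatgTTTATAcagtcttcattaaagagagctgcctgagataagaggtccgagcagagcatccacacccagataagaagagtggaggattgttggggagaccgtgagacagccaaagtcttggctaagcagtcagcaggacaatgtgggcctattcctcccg
The GC box GGGCGG, on either strand, was in 4 of the 8 windows (Inhbb, Tgfb1, Bmp6 and Bmp4) and in 35.7% of all promoters. The AP-1 letters TGANTCA were in 0 of the 8 windows and in 7.8% of all promoters. The cAMP response element TGACGTCA and the Smad palindrome GTCTAGAC were also in 0 of the 8, against 1.8% and 0.2% of all promoters.

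Levels are log2 processed intensities relative to the 75th percentile of each array, so a gene at 0 is as bright as that percentile, and levels of different probes are not set against each other. One slide, scanned once, carried the 8 arrays. Each group had its own places on it, with LL and WL in slide column 1 and LW and WW in slide column 2. An effect of place and one of genotype therefore cannot be told apart, and recipient genotype went with slide column. The intensity at the 75th percentile was 208.6 to 324.4 units, with 66.3 to 72.3% of spots well above background. The 5 lung markers (Sftpc, Sftpb, Scgb1a1, Ager and Cldn18) had a mean log2 level of 6.91 to 6.98 in LL, 6.57 to 7.18 in WL, 7.23 to 7.29 in LW and 7.33 to 7.37 in WW. The WL mice stood apart from each other: their gap had a median over all genes of 0.44, against 0.17 in LL, 0.12 in LW and 0.14 in WW. Replicate 1 of WL correlated with the WW arrays at r = 0.99 over genes, whereas replicate 2 did so at 0.95 to 0.96 and reached 0.97 to 0.98 with the LL arrays. A difference was called where limma gave an adjusted p under 0.05, with Benjamini-Hochberg adjustment over all 25830 genes tested, and SE is the standard error of the fitted log2 difference.

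Against WW, LL lungs had higher Gdf2, the single ligand gene called of the 10, where 3.13% of all genes were called (1.21% higher and 1.92% lower). Differences above 1 on the log2 scale were also measured for both activin subunits, Inhba and Inhbb, without being called. Both LL arrays lay below both WW arrays for Bmp2, Bmp5, Bmp6 and Tgfb1, and above both for Gdf2, Inhba, Inhbb, Tgfb2 and Tgfb3. This separation was frequent: 37% of all genes were above without overlap and 32.4% below. The median difference over the 10 ligands was 0.12, against 0.03 over all genes.

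**Figure D1:**
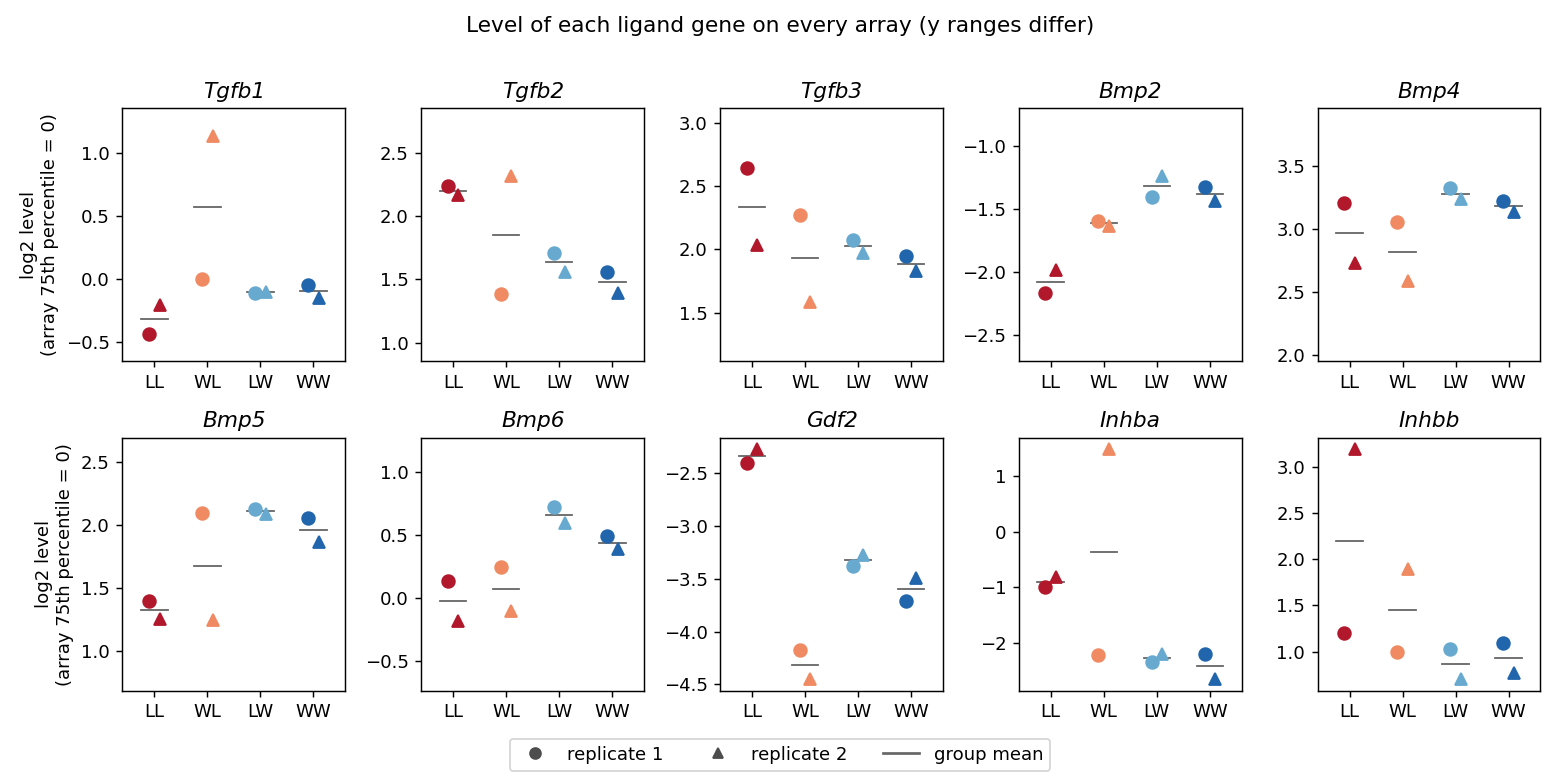
Log2 level of the 10 ligand genes (y axis, array 75th percentile at 0, range differing by panel) on each array of LL, WL, LW and WW (x axis), with a bar at each group mean. Gdf2 lies at -2.41 and -2.28 in LL, above all other arrays, while Inhba stands at 1.47 in replicate 2 of WL and at -2.21 in replicate 1.

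Gdf2 encodes BMP9, a ligand made mainly in the liver that circulates and acts on endothelium through the receptor ALK1 (Acvrl1) with endoglin. Its log2 level was -2.41 and -2.28 in LL, -4.18 and -4.45 in WL, -3.38 and -3.27 in LW, and -3.71 and -3.50 in WW. No group overlapped another, and the order was LL, LW, WW, WL. The LL minus WW difference was 1.26 (SE 0.164, adjusted p = 0.0216 in limma, 2.39-fold). LL also exceeded LW by 0.98 (SE 0.164, adjusted p = 0.0416 in limma) and WL by 1.97 (SE 0.164, adjusted p = 0.00879 in limma). Gdf2 was thus called in each comparison of LL with another group, and it was the 1 ligand called in each. Of all genes, 2.8% were called against LW (1.29% higher and 1.51% lower) and 1.72% against WL (0.573% higher and 1.15% lower).

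For Gdf2, both WL arrays lay below both WW arrays and both LW arrays above them, without either difference being called. WL was 0.71 below WW (SE 0.164, unadjusted p = 0.00454 and adjusted p = 0.486 in limma), whereas LW was 0.28 above WW (adjusted p = 1 in limma). The interaction, which asks whether the donor's genotype has a different effect in LysM-DTR and wild-type recipients, was 1.69 (SE 0.232, adjusted p = 0.0812 in limma), where 0.0619% of all genes were called (0.00387% positive and 0.0581% negative) and 0 of the 10 ligands. Unadjusted p under 0.05 in limma was reached in the interaction by 2 ligands, Gdf2 and Bmp2, and by 2360 of all 25830 genes. Across the groups Gdf2 was dim. Its processed intensity was 47.1 and 49.9 units in LL, 14.9 and 14.8 in WL, 24.5 and 26.1 in LW, and 18.7 and 18.5 in WW. The spot was well above background on all 8 arrays, as that flag is set by the feature extraction software. Correcting the background by normexp with an offset of 50 instead reduced the LL minus WW difference to 0.43 (adjusted p = 0.131 in limma), and leaving out any 1 array of LL, LW or WW also ended the call (adjusted p from 0.0638 to 0.150 in limma). The call against LW was lost under the same changes and under several others.

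**Figure D2:**
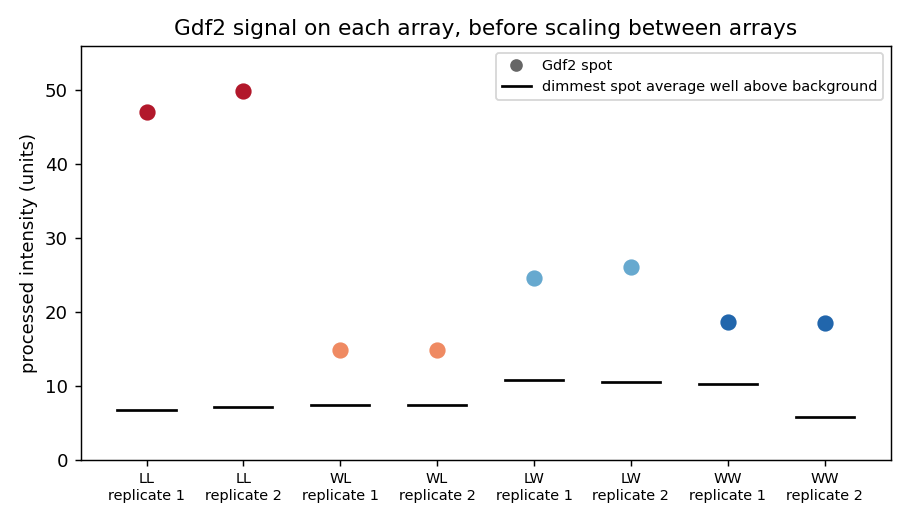
Processed intensity of the Gdf2 spot (y axis, units, before scaling between arrays) on each of the 8 arrays (x axis), with a line at the dimmest probe well above background on that array. The LL spots reach 47.1 and 49.9 units, and the WL spots stand lowest at 14.9 and 14.8.

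The activin subunits had the 2 largest gaps between mice of the same group among the ligands. Inhba encodes the beta-A subunit. Its log2 level was -1.0 and -0.82 in LL, -2.21 and 1.47 in WL, -2.33 and -2.19 in LW, and -2.18 and -2.64 in WW. Both LL mice lay above all LW and WW mice, replicate 2 of WL stood highest, and replicate 1 of WL lay among the LW and WW mice. The LL minus WW difference was 1.5 (2.83-fold), and its SE of 1.06 left it uncalled (adjusted p = 0.397 in limma). That SE pools the spread of all groups, including the WL gap of 3.68, which 0.457% of all genes exceeded. In replicate 2 of WL the level was 3.88 above the WW mean, 14.7-fold, with 1 mouse and no test.

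Inhbb encodes the beta-B subunit, and here the large gap was in LL. Its log2 level was 1.20 and 3.19 in LL, 0.99 and 1.90 in WL, 1.02 and 0.70 in LW, and 1.09 and 0.77 in WW. Both LL values were above both WW values, but replicate 1 by little, and the LL gap of 2.0 was exceeded by 0.689% of all genes. The LL minus WW difference was 1.27 (SE 0.648, adjusted p = 0.268 in limma).

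Among the TGF-betas, the highest Tgfb2 levels were in LL and in replicate 2 of WL, while Tgfb1 stood apart in replicate 2 of WL. Tgfb1, the isoform widely made by immune cells and platelets, had a log2 level of -0.43 and -0.20 in LL, 0.00 and 1.13 in WL, -0.11 and -0.10 in LW, and -0.04 and -0.15 in WW. LL lay slightly below WW without overlap, by 0.22 (SE 0.352, adjusted p = 0.710 in limma). A second Tgfb1 probe read -2.56 and -2.55 in LL, -2.06 and -0.97 in WL, -2.29 and -2.34 in LW, and -2.44 and -2.42 in WW, so that both probes placed LL lowest and replicate 2 of WL highest.

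Tgfb2, an isoform made by epithelial and mesenchymal cells, had a log2 level of 2.24 and 2.17 in LL, 1.39 and 2.32 in WL, 1.71 and 1.56 in LW, and 1.56 and 1.39 in WW. The LL mice lay above all LW and WW mice, and the WL mice were split, replicate 2 with LL and replicate 1 with WW. LL minus WW was 0.73 (SE 0.301, adjusted p = 0.203 in limma). The second Tgfb2 probe gave 1.25 and 1.33 in LL, 0.61 and 1.14 in WL, 0.95 and 0.71 in LW, and 0.74 and 0.63 in WW, the same placing of LL above LW and WW. Tgfb3, the third isoform, had a log2 level of 2.65 and 2.03 in LL, 2.27 and 1.59 in WL, 2.08 and 1.97 in LW, and 1.94 and 1.83 in WW. Its LL minus WW difference of 0.45 (SE 0.292, adjusted p = 0.360 in limma) rested mostly on replicate 1 of LL, and LL overlapped LW.

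The BMPs of the set other than Gdf2 had negative LL minus WW differences, none of them called. Bmp2, which acts in vessels and bone, came closest. Its log2 level was -2.17 and -1.98 in LL, -1.59 and -1.63 in WL, -1.40 and -1.24 in LW, and -1.33 and -1.44 in WW. LL stood lowest, WL next, and LW and WW overlapped. The difference was -0.69 against WW (SE 0.145, adjusted p = 0.0642 in limma) and -0.75 against LW (SE 0.145, adjusted p = 0.0559 in limma).

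Bmp5, which is made by mesenchymal cells of the lung, had a log2 level of 1.40 and 1.26 in LL, 2.10 and 1.25 in WL, 2.13 and 2.09 in LW, and 2.06 and 1.87 in WW. Replicate 2 of WL was at the level of LL, and replicate 1 at that of LW and WW. LL minus WW was -0.64 (SE 0.279, adjusted p = 0.219 in limma), and the other 2 Bmp5 probes above background also had both LL arrays below both WW arrays. One of these crosses an intron, since its 60 bases span 11394 bases of the genome. The remaining Bmp5 probe lies on the opposite strand and was above background on 0 of the 8 arrays.

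Bmp6, an endothelial ligand known for its control of hepcidin in the liver, had a log2 level of 0.13 and -0.18 in LL, 0.24 and -0.10 in WL, 0.72 and 0.60 in LW, and 0.49 and 0.39 in WW. Both groups with a LysM-DTR recipient lay below both groups with a wild-type recipient, a split that is also that of the slide columns. The share of all genes with this split was not counted. LL minus WW was -0.46 (SE 0.187, adjusted p = 0.195 in limma) and LL minus LW was -0.68 (SE 0.187, adjusted p = 0.107 in limma). Bmp4, a ligand of lung mesenchyme needed for airway development, had a log2 level of 3.20 and 2.73 in LL, 3.05 and 2.59 in WL, 3.32 and 3.23 in LW, and 3.22 and 3.13 in WW. LL overlapped WW, and the difference was -0.21 (SE 0.228, adjusted p = 0.570 in limma). A second Bmp4 probe read 0.92 and 0.49 in LL, 0.79 and 0.67 in WL, 0.99 and 0.98 in LW, and 0.86 and 0.52 in WW, which leaves no clear order of LL and WW.

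Since the SE of each LL comparison includes the spread of the WL mice, the fit was repeated without both WL arrays. The differences between LL and WW are the same by construction, and the SEs of Inhba, Tgfb2 and Bmp5 fell to 0.181, 0.113 and 0.113. Without WL, 5 ligands were called between LL and WW, where 32.1% of all genes were called (17.3% higher and 14.8% lower). Gdf2, Inhba (adjusted p = 0.00547 in limma) and Tgfb2 (adjusted p = 0.0100 in limma) were higher in LL. Bmp2 (adjusted p = 0.0129 in limma) and Bmp5 (adjusted p = 0.0145 in limma) were lower. Between LL and LW, 6 ligands were called without WL, against 32.8% of all genes (18.5% higher and 14.4% lower), and the added one was Bmp6, lower in LL (adjusted p = 0.0207 in limma). Both comparisons use the same 2 LL mice. In the fit with all arrays, LL lay above LW without overlap for 4 ligands and below it for 5, as did 40.3% and 31.6% of all genes.

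**Figure D3:**
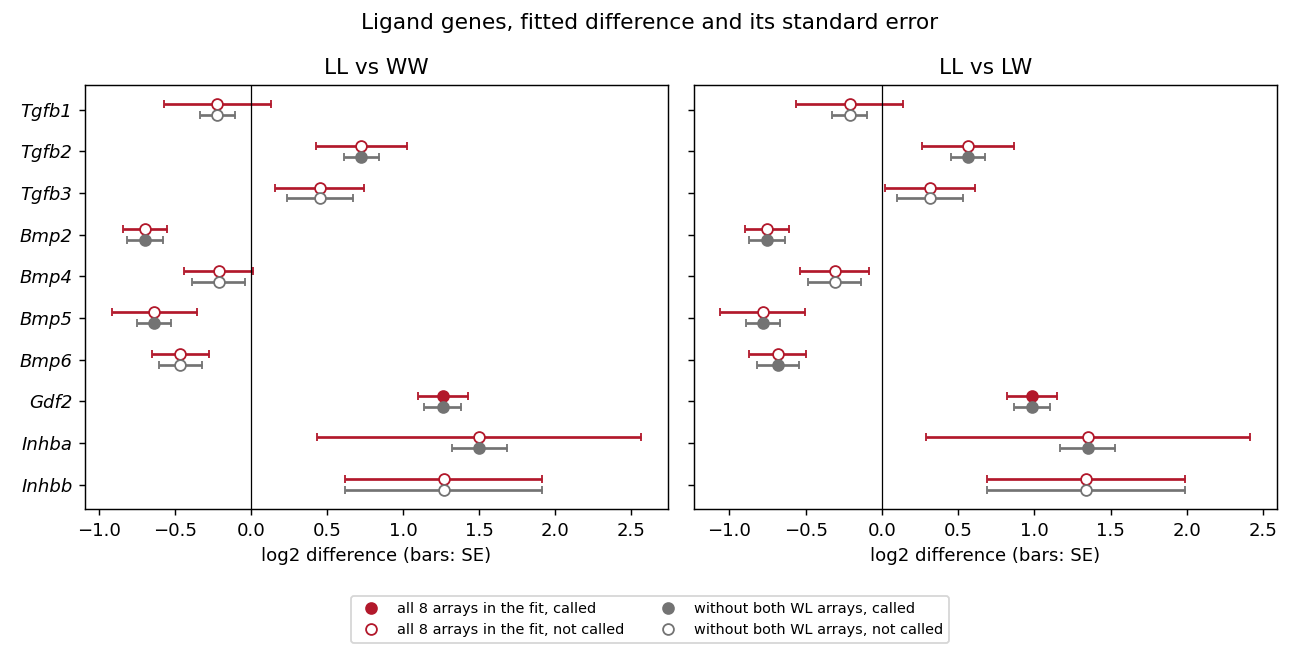
Fitted log2 difference (x axis, bars are SE) of each ligand gene (rows) in LL against WW and in LL against LW, from the fit on all 8 arrays and from the fit without both WL arrays, filled where called. Gdf2 is called in both fits, and the SE of Inhba in LL against WW is 1.06 with all arrays and 0.181 without WL.

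Mice with LysM-DTR on one side, in the marrow (LW) or in the recipient (WL), had 0 called ligands against WW. In LW against WW, 0.0542% of all genes were called (0.0465% higher and 0.00774% lower), and 569 genes and 0 ligands had an unadjusted p under 0.05 in limma. Differences ran from -0.07 for Inhbb to 0.28 for Gdf2, and 5 ligands lay above WW without overlap and 0 below, as did 13.8% and 20.1% of all genes. In WL against WW, 0.00387% of all genes were called, and 2112 genes and 1 ligand, Gdf2, had an unadjusted p under 0.05 in limma. Here 1 ligand lay above WW without overlap and 4 below, where 17.5% and 24.4% of all genes did. Because the WL mice disagree, the count depends on replicate 1. With it left out, and replicate 2 taken to vary like the other groups, 5 ligands were called against WW, where 37.7% of all genes were: Inhba, Tgfb1 and Tgfb2 higher and Bmp5 and Gdf2 lower. With replicate 2 left out, 0 ligands were called. In LL against WL, 3 ligands were called without replicate 1 (9.54% of all genes) and 4 without replicate 2 (19.7%). Inhba was called in opposite directions in these fits, at -2.38 without replicate 1 (adjusted p = 0.0166 in limma) and at 1.30 without replicate 2 (adjusted p = 0.0209 in limma). In the interaction, 2 were called without replicate 1 (0.863% of all genes) and 2 without replicate 2 (8.55%), Gdf2 being called both times.

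Replicate 2 of WL lay above the WW mean for some ligands and below it for others. Relative to the WW mean, replicate 2 of WL was 3.88 higher in Inhba, 1.23 higher in Tgfb1, 0.97 higher in Inhbb and 0.85 higher in Tgfb2. It was 0.85 lower in Gdf2, 0.71 lower in Bmp5, 0.59 lower in Bmp4 and 0.54 lower in Bmp6. Replicate 1 was 0.58 below the WW mean in Gdf2, and its next largest distance from that mean was 0.38, in Tgfb3. In Gdf2 the WL mice were near each other, and both lay on the side of WW opposite to LL. That distance from WW rests partly on the scaling of a dim spot. Before scaling, the processed intensity was 14.9 and 14.8 units in WL and 18.7 and 18.5 in WW. The 75th percentile was 269.7 and 324.4 units on the WL arrays and 244.3 and 208.6 on the WW arrays. Mean pixel intensities, with background included, overlapped (40.4 and 42.8 in WL, 45.8 and 42.6 in WW).

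**Figure D4:**
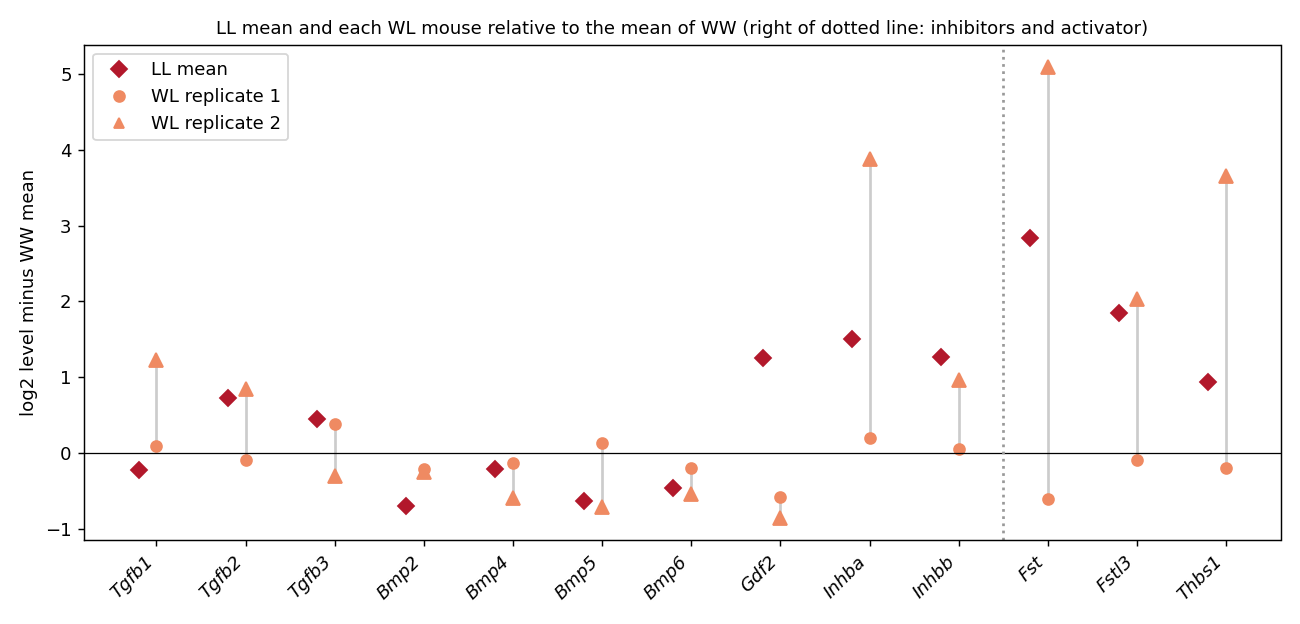
Log2 level minus the WW mean (y axis) for the mean of LL and for each WL mouse, for the 10 ligand genes and, right of the dotted line, for Fst, Fstl3 and Thbs1. Replicate 2 of WL reaches 3.88 for Inhba and 5.09 for Fst, while replicate 1 lies at 0.20 and -0.61.

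Fst and Fstl3, which encode inhibitors that bind activin, were also high in LL and in replicate 2 of WL. They and Thbs1 were chosen after their values were seen. Of the 18 inhibitors and storage proteins tested, 7 were higher in replicate 2 of WL than in replicate 1, with medians of -0.07 and -0.08 relative to the WW mean. Fst, encoding follistatin, which binds activin and blocks it, had a log2 level of -0.42 and 0.31 in LL, -3.50 and 2.20 in WL, -3.48 and -2.81 in LW, and -3.07 and -2.71 in WW. Replicate 2 of WL was thus 34.0-fold above the WW mean and replicate 1 below all LW and WW mice, and both LL mice were above all LW and WW mice. Fstl3, a follistatin relative that also binds activin, stood at 3.10 and 3.06 in LL, 1.14 and 3.27 in WL, 1.22 and 0.99 in LW, and 1.25 and 1.21 in WW. LL minus WW was 2.83 for Fst (SE 1.65, adjusted p = 0.319 in limma) and 1.85 for Fstl3 (SE 0.621, adjusted p = 0.151 in limma), neither of them called. Thbs1, encoding thrombospondin that can release latent TGF-beta, was 3.66 above the WW mean in replicate 2 of WL.

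The other genes of the pathway were read from 7 lists with 96 distinct genes, 86 of which were tested. Between LL and WW, 1 of them was called. Of 10 activators and processing enzymes, 1 was higher and 0 were lower: Tll1, encoding a tolloid-like protease that cleaves the BMP inhibitor chordin, had a log2 level of -2.04 and -1.69 in LL and -2.92 and -3.22 in WW (difference 1.21, SE 0.215, adjusted p = 0.0452 in limma). The median difference of that list was 0.68, against 0.03 over all genes. Of its 10 genes, 6 had a positive difference, as did 52.4% of all genes. Those below 0 included Mmp9 (-1.03) and Bmp1 (-0.69). Of 14 receptors, 0 were called (median 0.10). The receptor with the smallest p was Tgfbr2, the type II TGF-beta receptor, at 0.98 (SE 0.243, adjusted p = 0.0905 in limma), followed by Amhr2, the receptor of anti-Mullerian hormone, at 0.40 (adjusted p = 0.282 in limma). Of 8 Smads, 0 were called (median -0.03). Smad4, the partner common to all branches, differed by 0.73 (SE 0.206, adjusted p = 0.114 in limma), and Smad9 by -1.19 (adjusted p = 0.320 in limma).

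Of 18 inhibitors and storage proteins tested, 0 were called (median 0.09). The smallest p belonged to Ltbp4, which anchors latent TGF-beta in the matrix, at -1.03 (SE 0.243, adjusted p = 0.0817 in limma), and to Bambi, a decoy receptor, at -1.14 (adjusted p = 0.0949 in limma). Of 15 target and feedback genes of TGF-beta, 0 were called between LL and WW, and 13 had a positive difference (median 0.37), as did 52.4% of all genes. Opposite to them stood Smurf2 (-0.80) and Tgfbi, a matrix protein induced by TGF-beta and also made by macrophages. The log2 level of Tgfbi was 0.51 and 1.41 in LL, 3.71 and 5.10 in WL, 3.53 and 3.12 in LW, and 3.46 and 3.67 in WW. Tgfbi was not called against WW (-2.61, SE 0.505, adjusted p = 0.0544 in limma) but fell in LL against WL (-3.44, SE 0.505, adjusted p = 0.0357 in limma), the 1 pathway gene called there. Col1a2, encoding a chain of type I collagen, differed from WW by 0.75 (SE 0.162, adjusted p = 0.0683 in limma).

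Of 8 target genes of BMP, 0 were called (median -0.08). Id2, an inhibitor of DNA binding, differed by -1.07 (SE 0.284, adjusted p = 0.102 in limma), and Hey1, a repressor downstream of Notch and BMP, by -1.48 (adjusted p = 0.135 in limma). Of 15 tested ligands of the family outside the set, 0 were called (median -0.01), with Bmp7 at 1.30 (SE 0.322, adjusted p = 0.0910 in limma) and the oocyte factor Gdf9 at -0.91 (adjusted p = 0.124 in limma). In replicate 2 of WL, the TGF-beta targets had a median of 1.24 above WW, with 12 of 15 above their level in replicate 1, where the median was 0.02. That is 1 mouse without a test, and the matching share of all genes was not counted. In WL against WW, 0 of the 15 were called. The BMP targets had medians of 0.05 in replicate 2 and -0.08 in replicate 1.

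**Figure D5:**
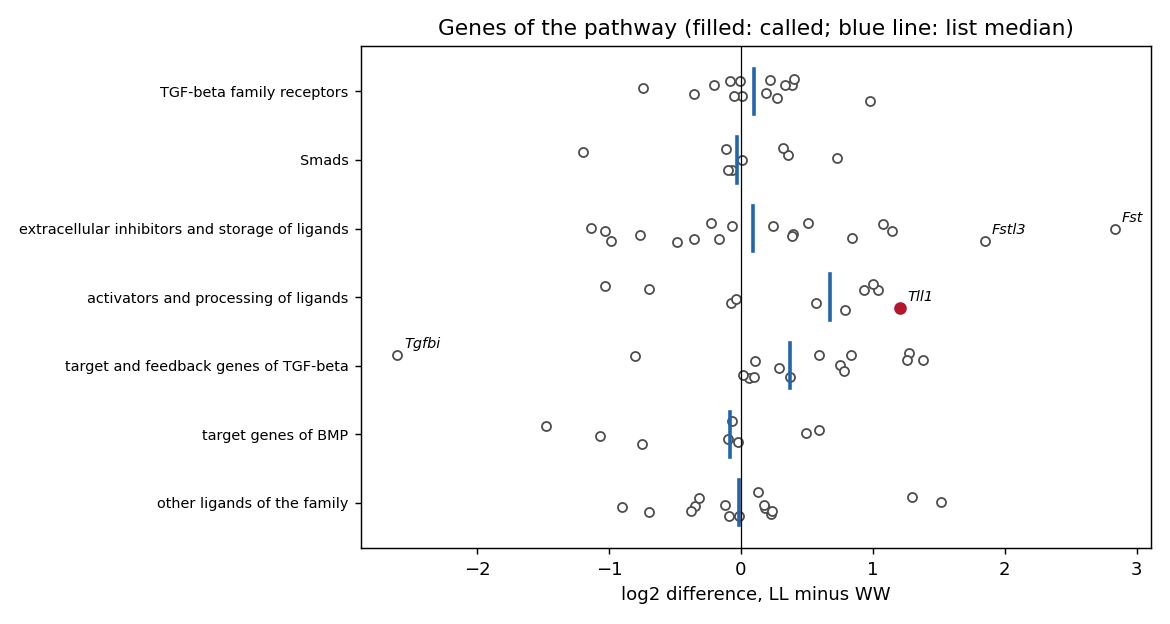
Log2 difference LL minus WW (x axis) of each tested gene of the 7 pathway lists (rows), with a line at each list's median and filled points where called. Tll1 is the filled point at 1.21, and Tgfbi lies farthest left at -2.61.

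Markers of other cell types moved with LL, and their part in the ligand differences was not tested. Of 10 macrophage and monocyte markers, 9 were called lower in LL than in WW, and their summed level (on the linear scale, in units of the array's 75th percentile) was 39.6 to 43.5 in LL and 581.1 to 593.4 in WW. All 6 platelet markers were called lower, with sums of 0.677 to 0.856 in LL and 12.8 to 18.3 in WW, and on the LL arrays 1 to 3 of the 6 were still well above background. Lymphocyte markers summed to 11.2 to 12 in LL and 22.1 to 25.2 in WW, with 1 of 8 called lower. Mesothelial markers summed to 78.0 to 78.2 in LL and 21.8 to 23.8 in WW, with 2 of 5 called higher. Of 6 endothelial and of 8 fibroblast and smooth muscle markers, 0 were called (medians 0.11 and -0.10). Alveolar type 2 markers summed to 512.6 to 604.4 in LL and 1340.1 to 1451.6 in WW, with 0 of 6 called (median -1.61). Alveolar type 1 markers summed to 644.6 to 648.9 in LL and 455.6 to 468.0 in WW, with 0 of 5 called (median 0.48). Between the WL mice, macrophage markers summed to 476.0 in replicate 1 and 213.9 in replicate 2, and type 2 markers to 1230 and 465.9. The sums were 389.2 and 358.2 for type 1, 24.5 and 11.7 for lymphocyte, and 10.7 and 18.7 for platelet markers. They were 21.8 and 49.9 for mesothelial, 131.6 and 159.2 for endothelial, and 76.8 and 74.7 for fibroblast and smooth muscle markers. Such sums lean on the brightest markers. The mean log2 level was 5.49 and 4.81 for type 1 markers. For macrophage markers it was 2.75 and 1.91, and 2.40 and 2.21 in WW.

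Over the 8 arrays, many pairs of ligands varied together or in opposition. Some are given here as a description, since the arrays share groups and 1 slide. How often other genes correlate as strongly with each other was not counted. Pearson's r was 0.90 for Bmp5 with Bmp6, 0.88 for Bmp4 with Bmp6 and 0.86 for Tgfb2 with Inhba. It was -0.90 for Tgfb2 with Bmp5, -0.83 for Inhba with Bmp4, -0.83 for Inhba with Bmp5 and -0.80 for Inhbb with Bmp6. Of 14800 other named genes above background on all arrays, those most like Inhba were Phf23 (r = 0.998), Efr3b (r = 0.997) and Ubr2 (r = 0.996). Those most like Inhbb were Cyp1b1 (r = 0.993), Golt1a (r = 0.987) and Ccdc138 (r = 0.986). Those most like Gdf2 were Ikzf5 (r = 0.976), Olfr430 (r = 0.974) and Ccdc64b (r = 0.972). With 8 arrays and so many genes compared, coefficients of this size carry no test. Single arrays also weigh heavily on those of the activin subunits. Inhba stood highest in replicate 2 of WL (1.47), and Inhbb in replicate 2 of LL (3.19).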

How the data were processed

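Lung RNA carrying the dye Cy3 was measured on Agilent arrays of 1 colour. The deposited array files hold intensity values, background-subtracted and detrended within the array per the file headers, from Agilent Feature Extraction 11.5.1.1 per the submitters' processing notes. The deposited series table holds log2 values, found to be the log2 processed signal minus the array's 75th percentile, and served as an alternative. Spots of a probe were averaged, taken to log2 and set relative to the array's 75th percentile. A probe was kept where some group had it well above background on each of its arrays (39602 probes), and the probe with the highest mean represented a gene.

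Group means on 8 arrays were fitted with limma 3.58.1 in R 4.3.3 (4 residual and 2.19 prior degrees of freedom, two-sided). A run on simulated data checked only that the fit returns differences put into the data. It gave every group the same spread, unlike the real WL mice, so it cannot tell how reliable the calls are. Figures used Python 3.11.15. Nothing in the labels says how the mice were bred or housed, and the p-values measure only the spread between 2 mice per group. The ligand genes and lists were chosen with earlier results of these data known. All ligands are named, with up to 4 called genes per pathway list (or the 2 of smallest p where none was called) and the 3 genes most correlated with the 3 ligands of largest LL minus WW difference. The LL against WL comparison is reported by its called gene. Alternatives were normexp with an offset of 50, quantile normalisation, another percentile base, no filter or a stricter filter, averaging all probes of a gene, the values of the series table, a replicate block, fewer groups, and leaving out each array.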

Additional observations from a re-analysis of the deposited data

How the results depend on the processing

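The tally of other settings covers all 10 ligands in LL against WW, LL against LW and the interaction, and Gdf2 alone in the other 3 comparisons. Of these 572 recomputed differences, 501 kept their direction and their side of the threshold, 19 lost a call, 41 gained one and 11 changed sign. The 19 lost calls were all those of Gdf2, which was higher in LL in each of its comparisons under every setting run. In LL against WW, 0 ligands were called with normexp. In LL against LW, 0 were called with normexp, with the 75th percentile over probes above background on all arrays, or with no filter. With only the groups compared in the fit, 5 ligands were called in LL against WW, 6 in LL against LW and 0 in LL against WL, beside 6245, 7141 and 0 of all genes. Without both WL arrays the counts were 5 in LL against WW and 6 in LL against LW. Leaving out either WL array alone gives the same fit for LL against WW and LL against LW, since a single WL mouse adds no spread. The calls gained there are the same ones, counted again in the tally and in the ranges that follow, and are no separate support. Leaving out 1 array gave 0 to 5 ligands in LL against WW, 0 to 5 in WL against WW, 0 to 6 in LL against LW, 0 to 4 in LL against WL and 0 to 2 in the interaction. Over all genes, leaving out 1 array gave 4 to 8286 calls in LL against WW, and no filter gave 400, against 808.

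The tallied differences that changed sign were called under neither setting. The Bmp4 interaction of 0.05 became -0.010 with normexp, -0.052 with quantile normalisation and -0.14 with the mean of its probes, and ran from -0.19 to 0.28 when 1 array was left out. Bmp4 in LL against WW ran from -0.45 to 0.023 when 1 array was left out, turning positive without replicate 2 of LL. With 1 array left out, the interaction ran from -0.069 to 0.61 for Tgfb3, from -0.18 to 1.82 for Inhbb, from -0.28 to 0.66 for Tgfb2 and from -2.53 to 1.15 for Inhba. The arrays that turned these signs were replicate 1 of LL or replicate 2 of WL for Tgfb3 and Bmp4, replicate 2 of LL for Inhbb, replicate 1 of WL for Tgfb2 and replicate 2 of WL for Inhba. Outside the tally, leaving out 1 WL array turned signs in LL against WL, where Inhba (-0.54) became 1.30 and was called without replicate 2, and Bmp4, Bmp5, Bmp6 and Tgfb2 changed sign uncalled. In WL against WW, Bmp5, Tgfb2 and Tgfb3 changed sign, likewise uncalled. Apart from the array left out, the cause was not tested.

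Groups shared replicate numbers in the labels, and deviations of same-numbered arrays correlated at -0.10 to 0.19. With 2 mice per group, these values cannot decide whether the numbers pair the mice. With the replicate block, 1 ligand was called in LL against WW, 0 in LL against LW (Gdf2 at an adjusted p of 0.0755 in limma) and 1 in LL against WL, and 447 genes in LL against WW. With no filter the median of all genes moved by -0.10 in LL against WW. The arrays number 2 per group, which limits the precision of every value, and Gdf2 is dim. Why normexp ended its call was not tested.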
